A study of Homo sapiens with 8 samples.

Results

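The 47 genes described here encode the machinery that copies DNA and the factors that carry a cell from G1 into S phase. They were chosen by name, as the genes of the MCM helicase, its activators, the origin recognition complex, licensing control, the sliding clamp and its loader, the replicative polymerases and primase, fragment joining, single-strand DNA binding, nucleotide supply and G1/S entry. Each was found by the single gene symbol of its probe sets, and the brightest probe set, by mean log2(value + 16) over the 8 arrays, stood for the gene. All 47 had a probe set, among 18244 genes that did, and all 47 lay above the filter on low signals that left 11946 genes for testing. The cells were SK-MEL-5, an established human melanoma line, measured on Affymetrix arrays in 4 groups of 2. THZ1, which binds covalently to the kinase CDK7 and blocks it, was given at 250 nM for 6 h in DMSO, and its reference was DMSO alone, for which the labels give no duration. siMITF cells had received an siRNA to MITF, a transcription factor of the melanocyte lineage, and siCtrl cells with a non-targeting siRNA. The labels give no time of harvest after transfection, and whether a group's 2 arrays stand for different cultures is not given. The p-values therefore cover only the spread between these arrays, which may be technical.

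As background, replication starts at origins marked by the origin recognition complex. In G1, CDC6 and CDT1 load the ring-shaped MCM helicase there, and in S phase CDC45 and the GINS complex turn it into the active helicase that unwinds DNA for the polymerases. Many genes of this machinery are transcribed around the G1/S boundary under control of E2F factors, and CDK7 acts both on cell cycle kinases and, as part of TFIIH, on RNA polymerase II.

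By the series' design text, signals were normalized to cell number, by a calculation not given in the sources used here, and by the labels ERCC spike-in RNA was added according to cell number. Changes on the deposited scale are therefore called per cell. Over 49495 probe sets, the THZ1 arrays had median signals of 51.1 and 67.6, against 61.3 and 76.1 for the DMSO arrays. The siMITF arrays had 40.1 and 32.5, against 51.1 and 59.3 for the siCtrl arrays. The 50 ERCC probe sets above the filter had medians of 511 to 534 on the drug arrays and of 253 to 266 on the siRNA arrays, so levels were not compared across these sets. Within a group the arrays correlated at r = 0.996 over tested genes but most genes differed by a common offset. For that reason changes are also given relative to the median gene, after centring: from each array was taken the median, over tested genes, of the deviation from the gene's mean. In what follows, values without the words per cell are log2 changes on that centred scale. Melanocyte lineage markers were bright (7 of 7 with a probe set passed the filter), while 4 of 5 keratinocyte markers, 4 of 5 leukocyte markers and 2 of 4 endothelial markers lay below the filter. Of 6 fibroblast markers, COL1A1, COL1A2 and COL3A1 lay below it, while the summed list was 2660 to 3447 with THZ1, against 2370.3 to 2863 with DMSO, and 734 to 976 with siMITF, against 1544 to 1866 with siCtrl, mostly LUM (2325 and 2983 with THZ1, against 2067 and 2476 with DMSO, and 809.8 and 613 with siMITF, against 1354 and 1639 with siCtrl). All arrays are of the melanoma line named above, and the source of these marker signals was not tested.

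Every per-cell value, with THZ1 and with siMITF, rests on 1 SE of 0.25 shared by all genes and taken as exactly known, so the per-cell p-values are too small. The targets were read first. MITF had signals of 1747 and 1168 with siMITF, against 3436 and 3936 with siCtrl, 2.56-fold lower per cell (log2 change -1.35, SE 0.25, adjusted p = 1.62e-06), with a centred change of -0.72 (SE 0.096, adjusted p = 3.25e-04). CDK7, whose protein THZ1 binds, had signals of 251 and 323 with THZ1, against 395 and 493 with DMSO, a centred change of -0.41 (SE 0.069, adjusted p = 0.00148). Per cell CDK7 had -0.60 and did not pass (adjusted p = 0.105).

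With siMITF nearly all of the replication genes were lower, and with THZ1 12 of the 47 were lower per cell. After siMITF, 46 of 47 members passed the test per cell as lower and 0 as higher, where 63.4% of all tested genes were lower and 0.326% higher. On the centred scale 43 of 47 were lower and 0 were higher, against 24.7% lower and 19.5% higher among all tested genes. Of the genes called on that scale 55.8% were lower, a split that moved to 41.1% under quantile normalization, with 40 members lower. After THZ1, 12 members passed as lower per cell, where 10.0% of all tested genes did, and 0 as higher, where 0.0753% did. On the centred scale 21 members were lower, where 21.1% of tested genes were, and 1 was higher, where 17.7% were. The members' median change per cell was -1.25 with siMITF, where all tested genes had -0.63, and -0.36 with THZ1, where all had -0.16. The THZ1 values depended on single arrays: the members had -0.16 and all genes 0.04 with THZ1 replicate 1 left out, and -0.61 and -0.37 with THZ1 replicate 2 left out. With DMSO replicate 1 left out the all-gene median was -0.32, and with DMSO replicate 2 left out -0.01. On the centred scale the medians were -0.62 with siMITF and -0.16 with THZ1, where all tested genes had 0.0014 and 0.04. In bulk RNA, fewer cells in S phase and less of each mRNA per cell cannot be told apart.

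**Figure D1:**
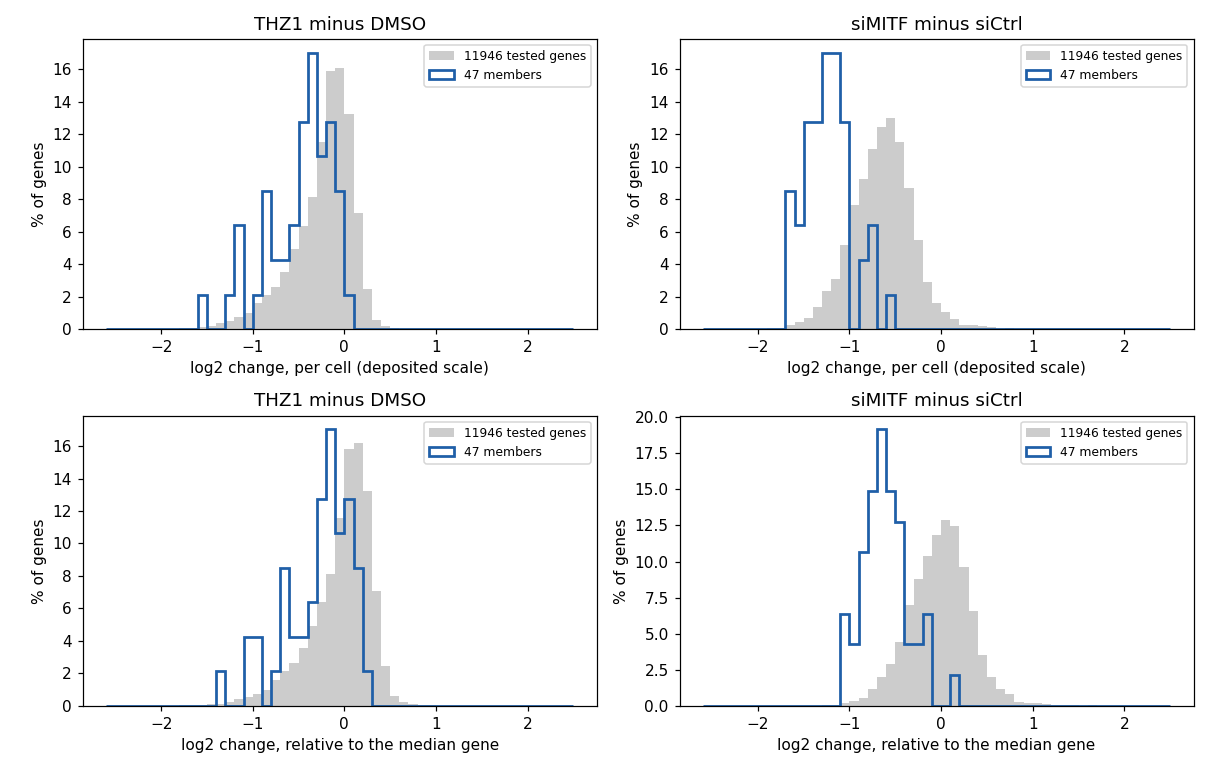
Distribution of log2 changes over the 47 members (blue outline) and all 11946 tested genes (grey), as percent of genes in bins of equal width, for THZ1 minus DMSO (left) and siMITF minus siCtrl (right), per cell (top) and relative to the median gene (bottom). With siMITF the members lie to the left of the bulk of genes on both scales, while with THZ1 most overlap it and a tail of members reaches -1.39 on the centred scale.

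The deposited signals can also be read array by array. All 47 members had both siMITF arrays below both siCtrl arrays, against 89.0% of tested genes. With THZ1, 27 of 47 had both arrays below both DMSO arrays, against 30.0% of tested genes, and 0 had both above. Most members are bright, and the siMITF change varied with signal over all genes. The median centred change with siMITF was 0.21 in the dimmest of 5 equal bins of tested genes by mean signal and -0.21 in the brightest. Set against the genes of their own bin, 46 of 47 members lay below the bin's median with siMITF and 38 of 47 with THZ1. The 17 members of the brightest bin had a median of -0.72 with siMITF, where the whole bin had -0.21. With THZ1 those 17 members had a median of -0.20, where the bin had 0.17. When the dependence on signal was taken out of each array by lowess, a setting added after the data were seen, 41 members were still lower and 0 higher with siMITF, with a median of -0.48, and 23 lower and 1 higher with THZ1. In that setting 1941 of all 11946 tested genes were lower and 2129 higher with siMITF, and 2536 lower and 2097 higher with THZ1.

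Promoters were read from RefSeq (GRCh38.p14), where 40 of the 47 members had an entry, because genes of this class are known to share short promoter words. The 250 bases before the start were searched on both strands for an E2F word (TTTCCCGC, TTTCGCGC, TTTGCCGC or TTTGGCGC), for CCAAT, for the CHR element of cell cycle genes (TTTGAA or TTCGAA) and for the E-box forms that MITF can bind (CACGTG or CATGTG). The E2F word stood in 15 of 40 member promoters (37.5%), against 4.44% of 9809 tested genes with an entry and 2.79% of all 27305 promoters in the table. CCAAT stood in 23 (57.5%), against 35.0% of tested genes and 33.0% of all promoters. The E-box forms stood in 5 (12.5%), against 14.3% and 15.5%, and the CHR element in 2 (5.0%), against 9.82% and 14.6%. Words of different motifs overlapped at 0 places in member promoters. Members with and without the E2F word had median changes of -0.58 and -0.64 with siMITF and -0.15 and -0.22 with THZ1 (15 and 25 members). These matches are letters in a window and were not tested for binding. Only exact words before the start were searched, so lack of the E2F word does not mean lack of an E2F site. The members with and without it are therefore not members with and without control by E2F.

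The E2F words of 6 members are shown as 30 bases each, written 5′ to 3′ on the gene's strand with the searched E2F words in capitals. They are the members with an entry that hold at least 1 word and had the lowest siMITF changes, a choice made after the values were seen. The MCM6 stretch lies at chr2:135876577-135876606, minus strand, with 2 overlapping words (TTTGGCGC and GCGCGAAA) 152 to 141 bases before the start, of 4 E2F words in its window. The GINS2 stretch lies at chr16:85688967-85688996, minus strand, with the word 31 to 24 bases before the start. The DTL stretch lies at chr1:212035718-212035747, plus strand, with the word 8 to 1 bases before the start. The TYMS stretch lies at chr18:657603-657632, plus strand, with the word 39 to 32 bases before the start. The RFC3 stretch lies at chr13:33818083-33818112, plus strand, with the word 55 to 48 bases before the start. The CDC25A stretch lies at chr3:48188443-48188472, minus strand, with the word 44 to 37 bases before the start.
MCM6: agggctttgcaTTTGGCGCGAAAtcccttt
GINS2: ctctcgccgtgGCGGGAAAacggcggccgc
DTL: caatcagagagcgtgacgtcagTTTGGCGC
TYMS: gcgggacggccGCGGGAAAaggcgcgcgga
RFC3: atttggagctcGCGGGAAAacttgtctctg
CDC25A: ggtggattccgTTTGGCGCcaactaggaaa

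Whole windows of 250 bases are shown for the members with the largest falls that had an entry, in capitals any of the words above. GINS1 and ORC5 fell furthest with THZ1, FEN1 and PRIM1 with siMITF, and TK1 had the largest difference between the comparisons. The GINS1 window is chr20:25407423-25407672, plus strand. The ORC5 window is chr7:104208014-104208263, minus strand. The FEN1 window is chr11:61792661-61792910, plus strand. The PRIM1 window is chr12:56752324-56752573, minus strand. The TK1 window is chr17:78187205-78187454, minus strand. GINS1 and PRIM1 hold a CCAAT word (as ATTGG in GINS1) 13 to 9 and 18 to 14 bases before the start, FEN1 holds CACGTG 30 to 25 bases before it, and ORC5 and TK1 hold 0 of the words in this window.
GINS1: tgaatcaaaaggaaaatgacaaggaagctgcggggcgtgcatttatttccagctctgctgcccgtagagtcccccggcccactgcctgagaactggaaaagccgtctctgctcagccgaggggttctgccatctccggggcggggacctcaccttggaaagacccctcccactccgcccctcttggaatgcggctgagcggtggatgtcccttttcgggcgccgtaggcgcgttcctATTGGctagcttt
ORC5: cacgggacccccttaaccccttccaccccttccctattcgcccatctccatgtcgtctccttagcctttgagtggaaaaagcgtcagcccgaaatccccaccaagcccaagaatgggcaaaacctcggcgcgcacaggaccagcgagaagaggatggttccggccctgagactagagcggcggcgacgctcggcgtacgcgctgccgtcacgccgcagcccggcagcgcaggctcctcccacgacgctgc
FEN1: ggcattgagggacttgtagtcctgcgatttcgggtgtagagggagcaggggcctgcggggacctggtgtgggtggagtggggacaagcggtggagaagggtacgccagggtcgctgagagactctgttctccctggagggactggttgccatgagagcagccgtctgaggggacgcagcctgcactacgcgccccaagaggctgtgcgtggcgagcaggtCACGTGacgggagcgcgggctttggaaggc
PRIM1: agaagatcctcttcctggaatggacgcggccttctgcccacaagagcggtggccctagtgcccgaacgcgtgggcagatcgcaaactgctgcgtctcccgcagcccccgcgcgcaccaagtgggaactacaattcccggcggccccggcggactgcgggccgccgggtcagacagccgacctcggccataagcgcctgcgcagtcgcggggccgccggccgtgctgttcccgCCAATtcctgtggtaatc
TK1: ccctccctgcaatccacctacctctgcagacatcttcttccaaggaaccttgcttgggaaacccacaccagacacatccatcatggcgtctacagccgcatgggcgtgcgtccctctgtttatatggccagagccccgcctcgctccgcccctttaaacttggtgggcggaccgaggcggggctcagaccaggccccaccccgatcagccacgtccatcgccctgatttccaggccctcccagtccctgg

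With THZ1, 21 of 47 members passed as lower relative to the median gene, where 21.1% of all tested genes did. They lay in 8 of the 10 roles, often beside members of the same complex that did not pass. The number of roles was not tested against that share. POLD3, the accessory subunit of DNA polymerase delta, fell furthest. Its signal was 45.6 and 61.1 with THZ1, against 173 and 213 with DMSO, and the groups did not overlap. Its change was -1.39 (SE 0.10, adjusted p = 1.05e-05), or 3.02-fold lower per cell (adjusted p = 2.75e-08), and 0.293% of tested genes had a lower centred change. POLD1, the catalytic subunit of the same polymerase, had signals of 111 and 162 with THZ1, against 138 and 171 with DMSO, with overlapping groups and a change of 0.02 (SE 0.071, adjusted p = 0.831). The 3 smallest changes of any member with THZ1 were those of MCM5 (-0.0016), GINS2 (0.01) and POLD1.

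Of the 6 genes that activate the helicase, 3 were lower with THZ1. GINS1, a GINS subunit, had signals of 335 and 486 with THZ1, against 920.1 and 1046 with DMSO. That is 2.37-fold lower per cell (adjusted p = 2.89e-05), with a centred change of -1.05 (SE 0.092, adjusted p = 2.69e-05). GINS3 had -0.67 (SE 0.068, adjusted p = 5.84e-05), whereas GINS2 and GINS4 of the same complex had 0.01 (adjusted p = 0.936) and -0.16 (adjusted p = 0.222). GINS2 signals were 222 and 296 with THZ1, against 264 and 329.8 with DMSO, so the groups overlapped. MCM10, which helps to start the active helicase, had signals of 108 and 152 with THZ1, against 245 and 275 with DMSO, and a change of -0.73 (SE 0.080, adjusted p = 1.04e-04). CDC45, another part of the active helicase, did not pass the test (-0.12, adjusted p = 0.246). Of the 6 subunits of the MCM ring itself, 2 were lower, MCM3 (-0.35, adjusted p = 0.00401) and MCM7 (-0.22, adjusted p = 0.0499). MCM7, with the brightest probe set of the ring, had signals of 2502 and 3287 with THZ1, against 3520.5 and 4165 with DMSO. Its other probe sets had -0.23, 0.08 and -0.09. MCM2, MCM4, MCM5 and MCM6 had changes from -0.23 to 0.09 that did not pass, and MCM5 signals overlapped, at 174 and 281 with THZ1, against 226 and 293 with DMSO.

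Of the 4 licensing genes, 3 were lower with THZ1. CDT1, the loader of the helicase, had signals of 104 and 142 with THZ1, against 261 and 325 with DMSO. It was 2.23-fold lower per cell (adjusted p = 1.32e-04), with a centred change of -0.96 (SE 0.079, adjusted p = 1.88e-05). CDC6, its partner in loading, had -0.61 (SE 0.072, adjusted p = 1.53e-04), and DTL, which recognises CDT1 for destruction in S phase, -0.56 (SE 0.068, adjusted p = 1.80e-04). GMNN, geminin, the inhibitor of CDT1, had signals of 1378 and 1752 with THZ1, against 1843 and 2294 with DMSO. The groups did not overlap, but the centred change of -0.20 did not pass (adjusted p = 0.0656). In the origin recognition complex ORC5 had the lowest change, with signals of 247 and 334 with THZ1, against 609 and 759.9 with DMSO. Its change was -1.00 (SE 0.072, adjusted p = 9.93e-06), 2.30-fold lower per cell (adjusted p = 6.43e-05). ORC1 (-0.39, adjusted p = 0.00326) and ORC6 (-0.22, adjusted p = 0.0336) were also lower. ORC6, with the brightest probe set of the complex, had signals of 669.95 and 854 with THZ1, against 923 and 1124 with DMSO, without overlap, while ORC2 (-0.14) and ORC3 (-0.06) did not pass. ORC4 was the member that passed as higher (0.26, SE 0.079, adjusted p = 0.0277), but its signals overlapped, at 518 and 718 with THZ1, against 527 and 649 with DMSO, and it had 0.06 per cell. That call was lost when THZ1 replicate 2, or either DMSO array, was left out.

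The G1/S regulators all fell relative to the median gene with THZ1. CCNE1 and CCNE2, the E cyclins that activate CDK2, had -0.44 (adjusted p = 0.00411) and -0.66 (adjusted p = 1.25e-04). CDC25A, the phosphatase that removes inhibitory phosphates from CDK2, had signals of 194 and 277 with THZ1, against 357 and 454 with DMSO, and a change of -0.55 (SE 0.070, adjusted p = 2.42e-04). CCNE2 and CDC25A passed per cell too, and CCNE1 had -0.64 per cell (adjusted p = 0.0788). At the clamp loader RFC4 fell furthest, with signals of 438 and 599.9 with THZ1, against 1078 and 1203 with DMSO, and a change of -0.93 (SE 0.078, adjusted p = 2.06e-05). RFC1 (-0.32, adjusted p = 0.00486) and RFC3 (-0.23, adjusted p = 0.0457) were lower by less. RFC2 (-0.10), RFC5 (-0.13) and the clamp PCNA (-0.02) did not pass. PCNA, with the brightest probe set of all members, had signals of 3692 and 4548 with THZ1, against 4481 and 5114 with DMSO, which overlapped.

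Of the polymerase and primase genes other than POLD3, PRIM1, the primase catalytic subunit, had signals of 339 and 472 with THZ1, against 635 and 851 with DMSO, and a change of -0.65 (SE 0.080, adjusted p = 1.97e-04). POLA2, a non-catalytic subunit of polymerase alpha, had -0.48 (SE 0.083, adjusted p = 0.00162), while its catalytic partner POLA1 had 0.10 (adjusted p = 0.310). POLE and POLE2 of polymerase epsilon had -0.14 and -0.06, neither passing. None of the genes of fragment joining and single-strand DNA binding passed with THZ1 on either scale. They are FEN1, the flap endonuclease (-0.14), LIG1, the ligase (0.04), and RPA1, RPA2 and RPA3 (0.13, -0.12 and 0.18). Their adjusted p values were 0.169 to 0.782 on the centred scale and 0.550 to 0.997 per cell. Of the nucleotide supply genes, RRM2, the regulated subunit of ribonucleotide reductase, was lower (-0.28, SE 0.078, adjusted p = 0.0190). A second RRM2 probe set of similar mean signal (1093, against 1146 on the tested one) had -0.04. The only call in this role thus rests on the tested probe set. RRM1, the large subunit of the reductase, TK1, thymidine kinase, and TYMS, thymidylate synthase, had 0.03, 0.05 and 0.16, with overlapping signals and no call. TYMS signals were 2836 and 3718 with THZ1, against 3042 and 3659 with DMSO. FEN1 signals were 758 and 1120.5 with THZ1, against 1124 and 1224 with DMSO, both THZ1 arrays being below both DMSO arrays, and RPA1 signals, at 979 and 1406 with THZ1, against 1125 and 1346 with DMSO, overlapped.

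**Figure D2:**
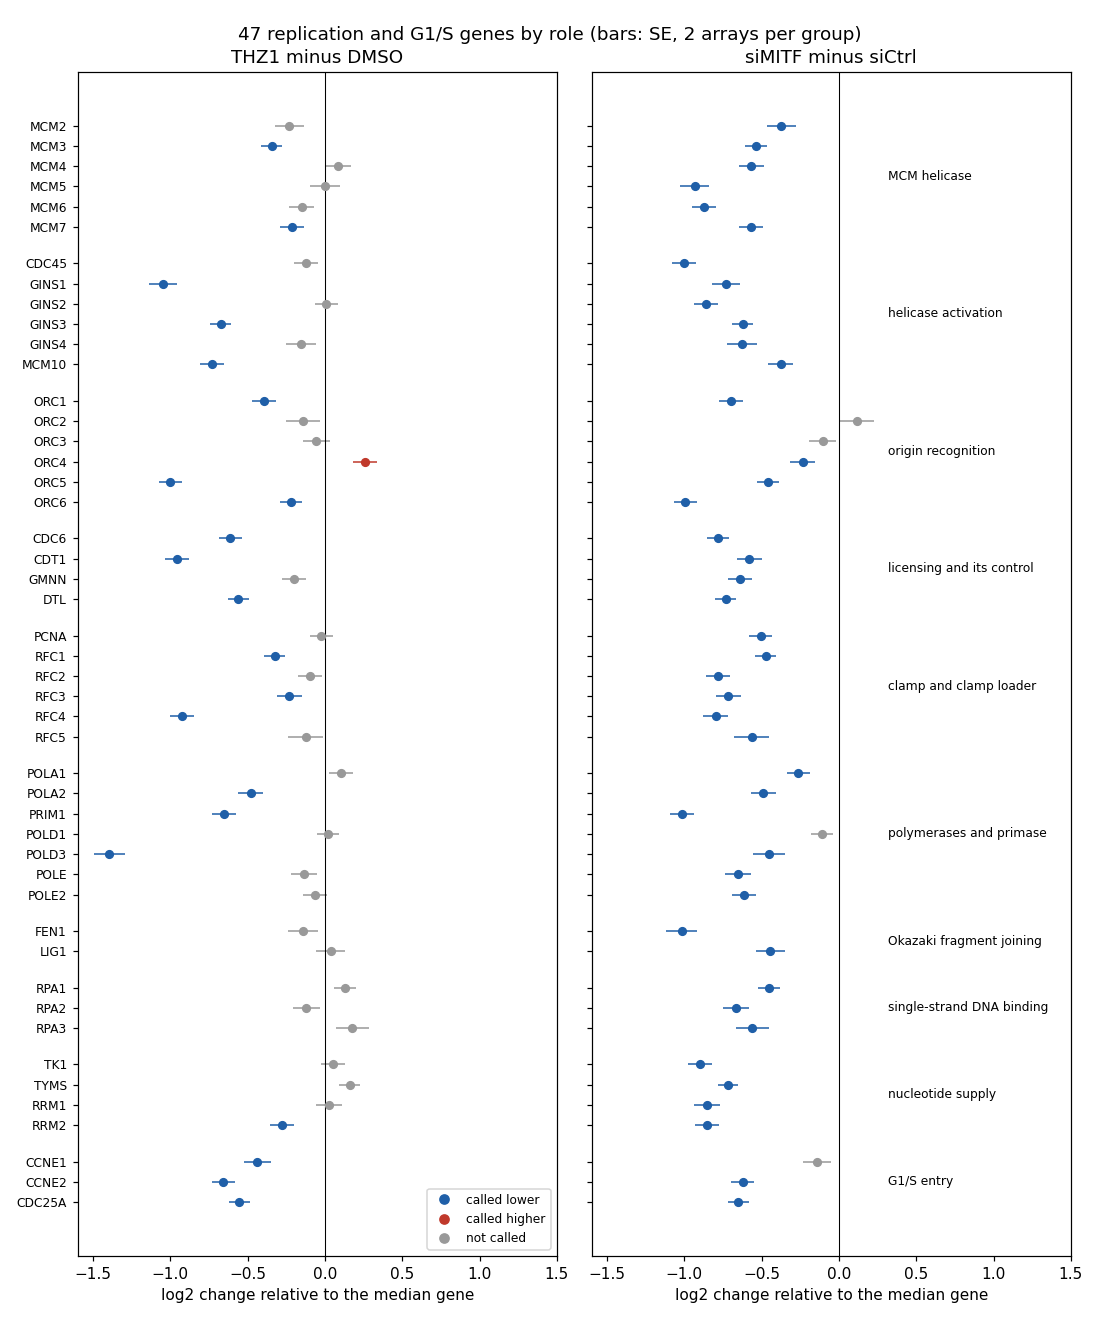
Log2 change relative to the median gene for each of the 47 members, grouped by role, for THZ1 minus DMSO (left) and siMITF minus siCtrl (right). Points are estimates from 2 arrays per group, bars are 1 SE, and colour gives the limma call at adjusted p under 0.05. With THZ1 the points spread between -1.39 (POLD3) and 0.26 (ORC4), and with siMITF 43 of 47 are called lower.

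With each gene's own variance in place of that shared SE, 0 members passed per cell with THZ1 (limma, lowest adjusted p = 0.269; 13 at an unadjusted p under 0.05), against 18 lower on the centred scale. Dropping a single drug-set array moved the per-cell medians of the members and of all tested genes together. Dropping THZ1 array 1 gave -0.16 for the members and 0.04 for all genes. Dropping DMSO array 2 gave -0.28 and -0.01, and dropping THZ1 array 2 gave -0.61 and -0.37.

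After siMITF every role held members called lower on the centred scale, 43 of 47 in all, where 24.7% of all tested genes were lower. The lowest centred changes were those of FEN1 and PRIM1. FEN1 had signals of 368 and 254 with siMITF, against 898 and 1100.3 with siCtrl, 3.14-fold lower per cell (adjusted p = 6.16e-09), and a centred change of -1.02 (SE 0.099, adjusted p = 6.51e-05). PRIM1 had signals of 195 and 146 with siMITF, against 495 and 642 with siCtrl, and a centred change of -1.02 (SE 0.080, adjusted p = 2.39e-05). Of the tested genes, 0.268% and 0.276% had lower changes than FEN1 and PRIM1.

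On their tested probe sets, all subunits of the helicase and its activators were lower with siMITF on both scales. CDC45 had signals of 99.2 and 76.4 with siMITF, against 271 and 343 with siCtrl, 3.11-fold lower per cell, with a centred change of -1.00 (SE 0.079, adjusted p = 2.40e-05). MCM5 had 75.6 and 69.7 with siMITF, against 221 and 275 with siCtrl, with a centred change of -0.93 (SE 0.096, adjusted p = 8.38e-05). Neither gene passed with THZ1. The other ring subunits ran from -0.87 for MCM6 to -0.37 for MCM2, and MCM7 had signals of 1833 and 1368 with siMITF, against 3464 and 3860.5 with siCtrl. The GINS genes had -0.73, -0.86, -0.62 and -0.63 for GINS1, GINS2, GINS3 and GINS4, and GINS1 signals were 378 and 355 with siMITF, against 844 and 1109 with siCtrl. MCM10 had -0.38.

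Origin recognition was the role with the widest spread after siMITF. ORC6 had signals of 325 and 246 with siMITF, against 827 and 994 with siCtrl, and a centred change of -0.99 (SE 0.072, adjusted p = 1.91e-05). ORC1, the subunit whose level is regulated through the cell cycle, had -0.70 (adjusted p = 1.22e-04), ORC5 -0.46 (adjusted p = 8.49e-04) and ORC4 -0.24 (adjusted p = 0.0356). ORC2 and ORC3 did not pass relative to the median gene. ORC2 signals were 53.3 and 48.2 with siMITF, against 72.8 and 86.3 with siCtrl, not overlapping, but its centred change was 0.12 (SE 0.11, adjusted p = 0.414) and its per-cell change, -0.52, was the one that did not pass (adjusted p = 0.0544). ORC3 signals were 98.6 and 71.7 with siMITF, against 127 and 179.6 with siCtrl, with a centred change of -0.11 (SE 0.088, adjusted p = 0.350). The licensing genes CDC6 (-0.78), CDT1 (-0.58), GMNN (-0.64) and DTL (-0.73) all fell, with adjusted p values of 4.98e-05 to 3.76e-04. GMNN signals were 767 and 563 with siMITF, against 1437 and 1799 with siCtrl.

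All 4 genes that supply nucleotides fell with siMITF. TK1 had signals of 581 and 434 with siMITF, against 1359.6 and 1614 with siCtrl, 2.89-fold lower per cell, and a centred change of -0.90 (SE 0.078, adjusted p = 3.57e-05). TYMS had signals of 1371 and 1153 with siMITF, against 2925 and 3564 with siCtrl, and a centred change of -0.72 (SE 0.067, adjusted p = 5.63e-05). RRM1 and RRM2 had -0.85 and -0.86 (adjusted p = 6.26e-05 and 4.98e-05). In the clamp and loader, PCNA had signals of 2005 and 1618 with siMITF, against 3659.6 and 4329 with siCtrl, and a change of -0.50 (SE 0.075, adjusted p = 5.87e-04), and the 5 RFC genes ran from -0.80 for RFC4 to -0.47 for RFC1, all passing. The single-strand binding genes RPA1, RPA2 and RPA3 had -0.45, -0.67 and -0.56, and RPA1 signals were 624 and 516 with siMITF, against 1114 and 1342 with siCtrl. LIG1 had -0.44 (adjusted p = 0.00418).

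Of the 7 polymerase and primase genes, 6 were lower with siMITF. POLE (-0.65), POLE2 (-0.61), POLA2 (-0.49), POLD3 (-0.45) and POLA1 (-0.26) passed as lower. POLD1 had signals of 85.1 and 71.3 with siMITF, against 127 and 156 with siCtrl, with a centred change of -0.11 (SE 0.071, adjusted p = 0.241), and passed per cell (-0.74, adjusted p = 0.00685). Of the G1/S regulators CDC25A had signals of 159 and 130.02 with siMITF, against 334 and 416 with siCtrl, and a change of -0.65 (SE 0.070, adjusted p = 1.03e-04), and CCNE2 had -0.62 (adjusted p = 1.81e-04). CCNE1 had -0.14 (adjusted p = 0.221), and passed per cell (-0.78). With each gene's own variance 0 members passed per cell (limma, lowest adjusted p = 0.0893; 45 at an unadjusted p under 0.05) and 39 were lower on the centred scale. Without siMITF replicate 2 the per-cell calls over all genes dropped to 1824 lower, and without siCtrl replicate 2 to 1745, against 7568 with all arrays, while 39 and 40 members were still lower.

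**Figure D3:**
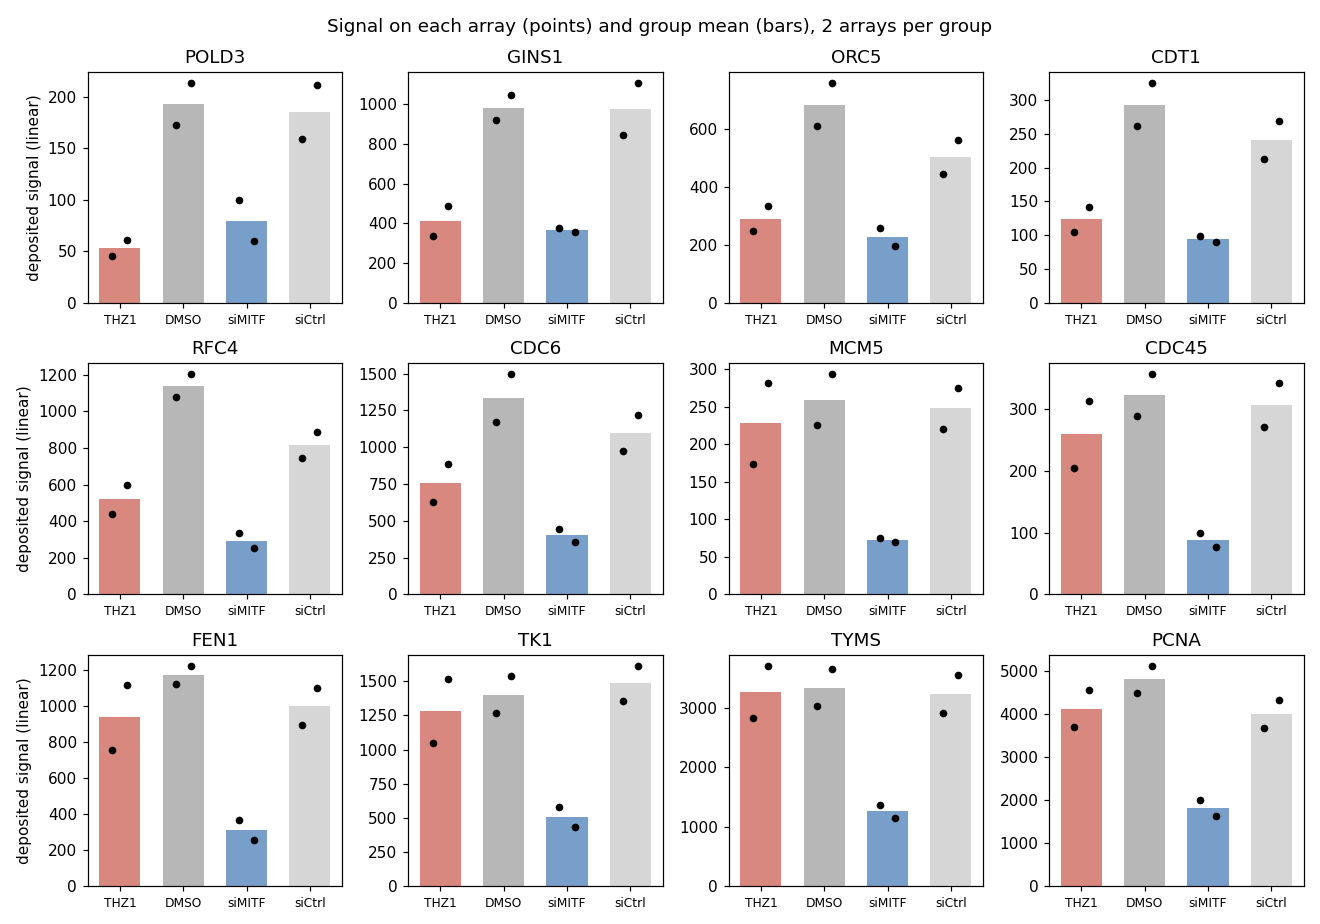
Deposited signal (linear scale from 0) of 12 members on each array, as points, with the group mean as a bar, for THZ1, DMSO, siMITF and siCtrl (2 arrays each). All 12 have both siMITF arrays below both siCtrl arrays, as 89.0% of tested genes do. POLD3, GINS1, ORC5, CDT1, RFC4, CDC6 and FEN1 also have both THZ1 arrays below both DMSO arrays, as 30.0% of tested genes do. The THZ1 and DMSO arrays overlap for MCM5, CDC45, TK1, TYMS and PCNA. The drug and siRNA sets have different spike-in levels and are not compared.

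The size of the change of most members differed between the comparisons, which share no arrays. The difference, the THZ1 change minus the siMITF change on the centred scale, was positive for 27 members, that is lower with siMITF, and negative for 4, that is lower with THZ1 (limma interaction contrast). Among all tested genes 21.4% passed as positive and 20.2% as negative. The 4 negative ones were POLD3 (-0.94, SE 0.15, adjusted p = 7.80e-04), ORC5 (-0.54, SE 0.10, adjusted p = 0.00220), CDT1 (-0.38, SE 0.11, adjusted p = 0.0214) and MCM10 (-0.35, SE 0.11, adjusted p = 0.0293). On its other probe sets ORC5 was lower with siMITF (-0.72 and -0.82) than with THZ1 (-0.62 and -0.31). MCM10 had -0.35 and -0.61 with THZ1 on its others, and -0.22 and -0.57 with siMITF. POLD3 and CDT1 were lower with THZ1 on theirs too. GINS4, called positive, had -0.03 with siMITF and -0.15 with THZ1 on its second probe set. Differences on these other probe sets were not tested. The largest positive ones were TK1 (0.95, SE 0.11, adjusted p = 1.85e-04), MCM5 (0.93, SE 0.14, adjusted p = 5.80e-04), CDC45 (0.88, SE 0.11, adjusted p = 2.90e-04), RRM1 (0.88, SE 0.12, adjusted p = 3.67e-04) and TYMS (0.88, SE 0.095, adjusted p = 1.31e-04). All 4 nucleotide supply genes, all 3 RPA genes and both fragment joining genes were among the positive ones, as were 4 of 6 MCM subunits. For the 3 G1/S regulators the difference did not pass, with -0.29 (SE 0.13) for CCNE1, -0.04 (SE 0.10) for CCNE2 and 0.10 (SE 0.099) for CDC25A. The counts depended on the normalization: 16 positive and 7 negative with quantile normalization, and 19 and 7 with lowess. Of all genes called, 48.5% were negative, and 63.4% under quantile normalization.

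Across the 47 members the centred changes of the comparisons were nearly unrelated, with Pearson's r = 0.060 and Spearman's rho = 0.079. Points are genes measured on the same arrays, not independent replicates, and no test was made. Relative to the median gene 20 members were lower in both comparisons, 22 were lower with siMITF and not called with THZ1, and 1, CCNE1, was lower with THZ1 and not called with siMITF. ORC4 was higher with THZ1 and lower with siMITF. ORC2, ORC3 and POLD1 passed in neither. Among all tested genes 24.7% were lower with siMITF and 21.1% with THZ1, and the share lower in both was not counted. As 43 of 47 members were lower with siMITF, most of those lower with THZ1 were bound to be lower in both.

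**Figure D4:**
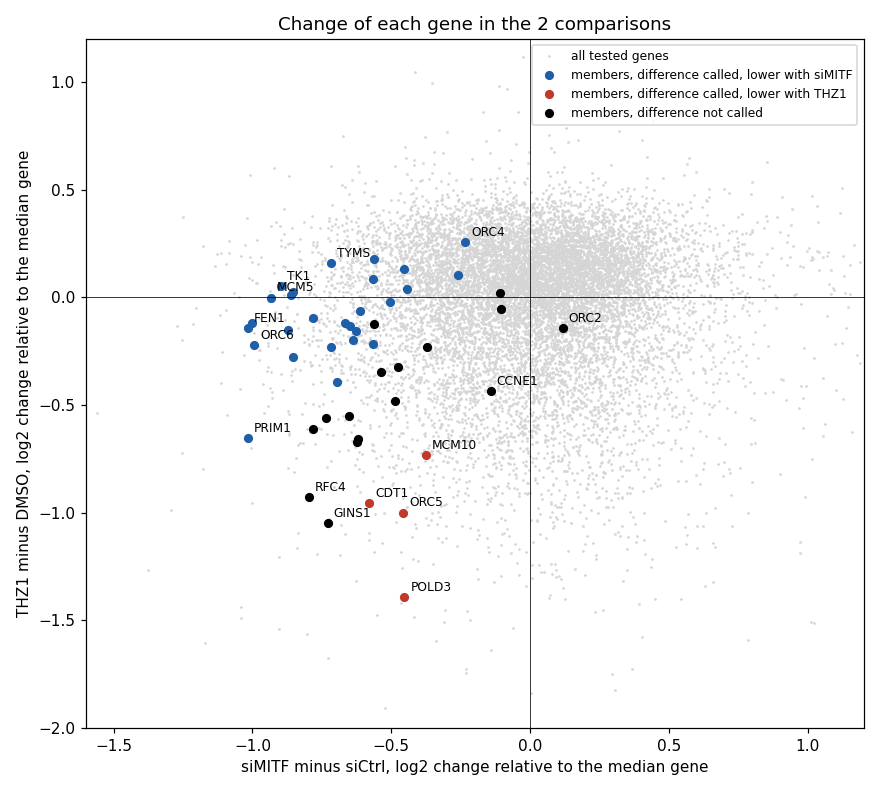
Log2 change relative to the median gene with siMITF (x axis) and with THZ1 (y axis) for the 47 members (large points) over all tested genes (small grey points, axes cropped at the range shown). Colour marks whether the difference of the changes passed the test. TK1, MCM5 and TYMS lie far left near 0 on the y axis, while POLD3, ORC5 and GINS1 lie lowest on the y axis.

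Other genes of the pathway were also listed by name. Of 84 listed genes, 80 had a single-symbol probe set and passed the filter. With siMITF 49 of these were lower on the centred scale and 4 were higher, with a median of -0.34, where 24.7% of all tested genes were lower and 19.5% higher. With THZ1 34 were lower and 9 higher, with a median of -0.16, where 21.1% of all tested genes were lower and 17.7% higher. The counts of the single lists stand against the same shares. Of 29 other replication factors 20 were lower with siMITF and 7 with THZ1, and of 9 genes of chromatin assembly at forks 8 and 7. Of 14 other nucleotide supply genes 9 were lower with siMITF and 3 with THZ1. The THZ1 counts for replication factors and nucleotide supply lie near the share of all tested genes. Of 28 other G1/S control genes 12 were lower with siMITF and 17 with THZ1. Called higher with THZ1 were 4 replication factors, 3 nucleotide supply genes, 2 G1/S control genes and 0 genes of chromatin assembly. With siMITF the higher calls numbered 0, 1, 3 and 0 in the same order.

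The lowest of them with THZ1 were factors of the E2F family and a replication kinase. E2F5 (-1.82, adjusted p = 7.47e-06), E2F8 (-1.42, adjusted p = 3.02e-05) and E2F7 (-1.13, adjusted p = 1.11e-05) are E2F factors known as repressors, CDC7 (-1.03, adjusted p = 2.47e-04) phosphorylates the MCM ring, and CDKN1B (-0.98, adjusted p = 1.18e-05) is the CDK inhibitor p27. The highest were PAICS (0.45, adjusted p = 9.13e-04), cyclin D2 gene CCND2 (0.37, adjusted p = 0.00429), POLE4 (0.35, adjusted p = 0.00720), CMPK1 (0.35, adjusted p = 0.0259) and SAMHD1 (0.34, adjusted p = 0.00408), none of which passed per cell. With siMITF the lowest were DSCC1, a clamp loader subunit (-1.11, adjusted p = 2.89e-05), cyclin A2 gene CCNA2 (-0.96, adjusted p = 2.85e-05), CDK2 (-0.87, adjusted p = 5.39e-05), RNASEH2A (-0.82, adjusted p = 4.26e-04) and CDK4 (-0.79, adjusted p = 7.44e-05). The highest were CCND2 (0.75, adjusted p = 8.44e-05), CDKN1A, the CDK inhibitor p21 (0.53, adjusted p = 4.61e-04), the pocket protein RBL2 (0.37, adjusted p = 0.00287), IMPDH2 (0.35, adjusted p = 0.00636) and E2F5, which did not pass (0.31, adjusted p = 0.0693). Per cell these 5 had changes from -0.33 to 0.12 and none passed.

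**Figure D5:**
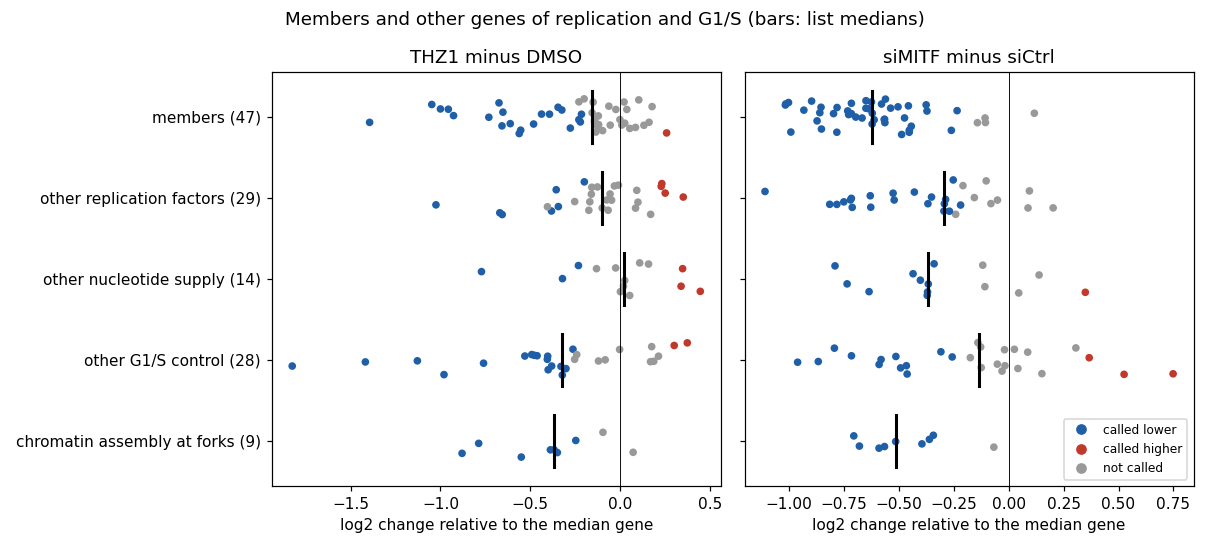
Log2 change relative to the median gene for the members and the 4 lists of other pathway genes, with the number tested in brackets, for THZ1 minus DMSO (left) and siMITF minus siCtrl (right). Each point is a gene, coloured by its call, and the black bar is the list median. With siMITF the members' median, -0.62, is the lowest of the lists, while with THZ1 the chromatin assembly list has the lowest, -0.37.

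Other probe sets of the members mostly pointed the same way. Of 66 further probe sets above the filter, in 32 members, 61 had a centred siMITF change of the same sign as the tested probe set and 53 a THZ1 change of the same sign. POLD3 had -0.80 and -0.87 with THZ1 on its other probe sets, against -1.39 on the tested one. ORC5 had -0.62 and -0.31, and with siMITF -0.72 and -0.82, lower than the -0.46 of its tested probe set. RPA1 had 0.20 with siMITF on a dim second probe set, and RFC1 had 0.03 and 0.03 with THZ1 on its others. RFC4 had positive siMITF changes on its other probe sets, which lay below the filter. The tested probe sets of 7 members end in _x_at and of 8 in _s_at, designs that can also detect related sequences.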

How the data were processed

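Gene expression was measured on 8 Affymetrix arrays, 2 each for THZ1, DMSO, siMITF and siCtrl. The deposited values are array intensity on a linear scale, summarised with MAS5 per the submitters' processing notes and scaled to cell number, as the series' design text has it. Of 49495 probe sets, 45284 carried 1 gene symbol in the platform annotation (45214 matched RefSeq by gene ID) and 1333 several, which were not used. The brightest probe set stood for a gene. Genes at or above the 40th percentile of mean signal (39.2) were tested, 11946 in all, on log2(value + 16), so that folds of dim genes are understated. Group means over all 8 arrays were fitted with limma 3.58.1 in R 4.3.3, with Benjamini-Hochberg adjustment over all tested genes and a threshold of 0.05, on the deposited scale and after centring. The script was tested on simulated data.

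Members and gene lists were chosen with earlier results of these data known. All 47 members could be named; array signals were given for the 6 largest and 3 smallest changes in each comparison and the brightest member of each role, and other pathway genes for the 5 lowest and 5 highest changes. Same-numbered arrays were not treated as pairs. Alternatives were pseudocount, filter, probe set choice, variance model, replicate block, rescaling, normalization and leaving out each array. Depth is not defined for arrays, and their number limits the precision.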

Additional observations from a re-analysis of the deposited data

How the results depend on the processing

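The members' fall with siMITF relative to the median gene had 37 (of 42 measured, without _x_at and _s_at probe sets) to 43 members lower and 0 higher under the settings run. Of the values for single members over all settings, 4352 kept direction and call, 256 lost the call, 61 gained it, 89 uncalled values changed sign and 6 called ones did; the causes were not tested. Per cell with THZ1 the 12 lower members became 7 with a variance trend, 6 with ERCC rescaling (10 when the 50 ERCC probe sets above the filter were used, a setting added after the data were seen) and 0 with each gene's own variance, where siMITF per cell also had 0. Over all genes own variance gave 0 lower calls per cell in both comparisons, where the moderated variance gave 1199 with THZ1 and 7568 with siMITF. It left 2 members with a negative difference. ERCC rescaling gave 600 lower genes with THZ1. The single member higher with THZ1 became 0 with no filter and without _x_at and _s_at probe sets, and 2 with a filter at the 60th percentile and with the variance trend.

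The centred median with siMITF was -0.80 with no filter, -0.52 with the filter at the 60th percentile, -0.46 with quantile normalization and -0.48 with lowess. With THZ1 it was -0.21 with no filter, -0.23 with quantile normalization and -0.21 with lowess. The median difference was 0.57 with no filter, 0.35 with the 60th percentile, 0.34 with a pseudocount of 1, 0.36 with the mean of all probe sets, 0.36 without _x_at and _s_at probe sets, 0.17 with quantile normalization and 0.23 with lowess. Negative differences numbered 1 with no filter, 7 with quantile normalization and 7 with lowess, and positive ones 16 with quantile normalization. All genes lower with siMITF on the centred scale numbered 2946, against 1870 with quantile normalization and 1941 with lowess, and genes higher with THZ1 2112, against 477 with no filter. The difference turned direction for GINS4 (-0.14 with a pseudocount of 1, -0.039 with quantile normalization), MCM7 (-0.0064 with quantile normalization) and ORC5 (0.035 with the mean of all probe sets). The siMITF change turned for RFC4 (0.14 with the mean of all probe sets) and RPA1 (0.19 without _x_at and _s_at probe sets).

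Leaving out each array in turn, members lower per cell ranged from 5 to 18 with THZ1 and 39 to 47 with siMITF, with medians of -0.61 to -0.16 and -1.42 to -1.10. On the centred scale they ranged from 17 to 20 with THZ1 and 40 to 43 with siMITF, with medians of -0.23 to -0.15 and -0.66 to -0.61, and 0 to 1 were higher with THZ1. The difference was positive for 22 to 27 members and negative for 2 to 4, with medians of 0.35 to 0.47. Over all genes, lower calls per cell with THZ1 numbered 354 when THZ1 replicate 1 was left out, 246 for DMSO replicate 2 and 2099 for THZ1 replicate 2. An arm left with 1 array was assumed to vary like the others.

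Whether same-numbered arrays are pairs is not given in the labels. The correlation of their deviations over genes was 0.11 in the drug set and -0.18 in the siRNA set. That correlation cannot show an offset shared by all genes. The offset was higher in replicate 2 than in replicate 1 with THZ1 (0.37, against -0.04), DMSO (0.51, against 0.21) and siCtrl (0.19, against -0.06). With siMITF it was lower (-0.71, against -0.43). Pairing was therefore not settled. With the replicate number as a block, 14 members were lower per cell with THZ1 and 47 with siMITF, 18 and 43 on the centred scale, and the difference was positive for 27 and negative for 4. Of all 11946 tested genes, 1534 and 8473 were then lower per cell, and 2492 and 2798 on the centred scale. With the siRNA numbers crossed, a setting added after the data were seen, 47 members were lower per cell and 43 on the centred scale with siMITF, and the difference was positive for 26 and negative for 4. In that setting 11017 of all 11946 tested genes were lower per cell and 3008 on the centred scale, so the per-cell count says little about the members. With 2 arrays a group and no signal over background given, low signals limit the precision of dim members such as ORC2 and POLD3.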
